A study of Mus musculus with 32 samples.

Results

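Adult mouse blood progenitors that had received doxycycline at 2500 ppm in their chow were compared with progenitors from mice that had received 1250 ppm. The comparison took every adult library labelled with these 2 doses, which were 10 of the 32 libraries of the series, 6 at 2500 ppm and 4 at 1250 ppm (numbered 1, 3, 4 and 5 in the labels). All 10 were made from adult bone marrow cells sorted as Lin- cKit+ Sca1-, by paired-end sequencing of total RNA depleted of ribosomal RNA. Mice of both groups carried Mx1-Cre, rTA, the transgene tgU2AF1(WT) and the endogenous alleles U2af1(flox/S34F), and both were injected with polyinosinic-polycytidylic acid (pIpC). The compound switches on Mx1-Cre, which removes the floxed U2af1 allele and leaves the allele with the S34F substitution as the endogenous copy, and doxycycline switches on the transgene of wild-type U2AF1. The dose in the chow was therefore the labelled difference, and the question was how the progenitor transcriptome differs between an intermediate and the lowest dose. The other 7 adult libraries were 4 from the same genotype with pIpC at 10000 ppm and 3 untreated ones with Mx1-Cre, rTA, tgU2AF1(WT) and U2af1(wt/wt). They entered the model for the spread, and the filter on low counts and the scaling of the libraries also used them.

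The model has limits. Mx1-Cre responds to interferon in many cell types, so excision is not restricted to blood cells. The labels gave the age only as adult, named no batch for adult libraries and did not say whether each library was 1 mouse, so p-values measure the spread between these libraries. U2af1 and the transgene were not analysed here, and excision, induction and the amount of U2AF1 at each dose were therefore not checked. In sorted bulk samples, fewer cells of a type and less RNA per cell cannot be told apart.

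U2AF1 is the small subunit of U2AF, the dimer that recognises the 3′ end of introns. Its partner U2AF2 binds the polypyrimidine tract, U2AF1 binds the AG dinucleotide, and together they bring the U2 small nuclear ribonucleoprotein, with its SF3A and SF3B proteins, to the branch point. S34F lies in a zinc finger of U2AF1 and recurs in myelodysplastic syndromes and acute myeloid leukaemia. The sorted population holds the common myeloid, granulocyte-monocyte and megakaryocyte-erythroid progenitors. No adult group had doxycycline without the transgene, so the agent and what it induces cannot be told apart.

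The total count per library was 45.8 to 59.2 M at 2500 ppm and 49.7 to 70.0 M at 1250 ppm (M, 1e+06 counts), and 17648 to 18468 genes at 2500 ppm and 16215 to 18665 at 1250 ppm had a count above 0. Kit, the stem cell factor receptor used in the sort, was present in every library. It lay between 376 and 676 counts per 1e+06 (CPM) after scaling by trimmed mean of M values (TMM). Mpo, the myeloperoxidase of granulocyte-monocyte progenitors, was not a marker of the sort and lay between 21909 and 33280 CPM. Ly6a, which encodes Sca1, was not analysed here. Among the 1000 most variable genes, the first principal component held 33.2% of the variance. On it the 2500 ppm libraries fell apart, with libraries 1, 5 and 6 at 27.5 to 29.4 and libraries 2, 3 and 4 at -6.97 to -1.44. The 1250 ppm libraries lay at -32.6, -30.5, -13.0 and 0.33, so that library 3 of that dose lay inside the range of the 2500 ppm group. The neutrophil list (9 tested markers of maturing neutrophils) moved along this component, with a mean level of 4.91 to 7.44 log2 CPM at 2500 ppm and 3.89 to 5.24 at 1250 ppm. A fit with this level as a covariate is given below. The level was itself mostly higher at 2500 ppm, so that fit also takes away part of the difference between the doses. It cannot separate the part of this list from that of the dose, and the part of the list was not tested.

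**Figure D1:**
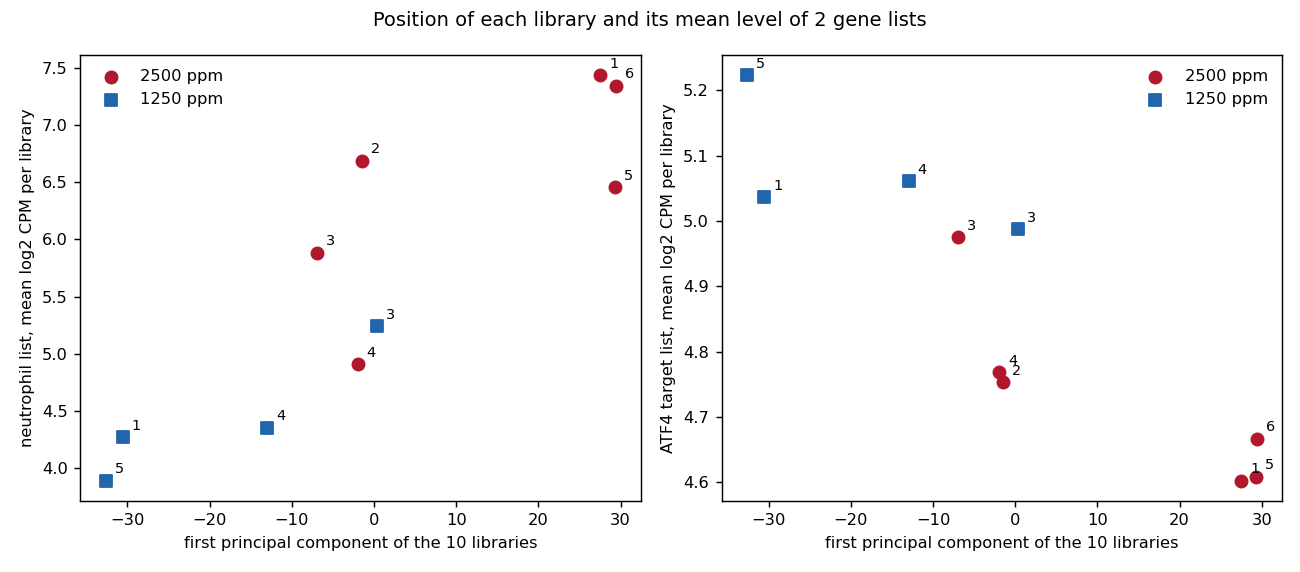
Each point is 1 of the 10 libraries, numbered as in the labels (red circles, 2500 ppm; blue squares, 1250 ppm), with the first principal component on the x axis and the mean log2 CPM of the neutrophil list (left) or the ATF4 target list (right) on the y axis. Libraries 1, 5 and 6 at 2500 ppm stand at the right end, and 1250 ppm library 3, at 0.33, is the 1250 ppm library nearest to the 2500 ppm libraries 2, 3 and 4 on the x axis.

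In the edgeR quasi-likelihood fit over all 17 adult libraries, 255 of 13338 genes tested (1.91%) passed a Benjamini-Hochberg adjusted p of 0.05 between the doses. Of these, 182 (1.36%) were lower and 73 (0.547%) were higher at 2500 ppm. The falls were small and the rises larger: the median log2 fold change was -0.33 over the genes called lower and 0.68 over those called higher, against 0.01 over all genes tested. A change of at least 2-fold was called in 29 genes (0.217%), 23 of them higher. The values of both doses were free of overlap in 217 of the 255 called genes, and in 1100 of all genes tested (8.25%). An unadjusted p under 0.05 was found in 2762 genes, where 666.9 would be expected with no difference.

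The calls sat at the edge of the threshold, and single libraries decided them. The smallest adjusted p was 0.0443, shared by 144 of the called genes. Leaving out 1250 ppm library 1, 4 or 5, or 2500 ppm library 1, 2, 5 or 6, each gave 0 calls in edgeR, with 1915 to 2556 genes at an unadjusted p under 0.05. Without 1250 ppm library 3 the count was 229, without 2500 ppm library 3 it was 300, and without 2500 ppm library 4 it was 926. Without 2500 ppm libraries 1, 5 and 6 together, which stand apart on the first component, no gene was called. In that fit 1407 genes had an unadjusted p under 0.05. Without 2500 ppm libraries 2, 3 and 4 the number of calls was 1503. Both sets were chosen by their place on that component, where libraries 1, 5 and 6 lie farthest from the 1250 ppm libraries. The contrast between both counts is therefore partly fixed by this choice. With the level of the neutrophil list as a covariate, 1 gene was called, Rnaset2b, a secreted ribonuclease gene, with a log2 fold change of -0.87 ± 0.12 (SE) and an edgeR adjusted p of 0.0335. DESeq2 called 948 genes and limma voom with sample weights 2989, and each of these sets held all 255. In the fit of the 10 libraries alone, 254 genes were called, 134 of them shared, and 115 were lower and 139 higher, a share of 45.3% lower in place of 71.4%. The 255 genes kept their direction in every alternative in which they were tested, which is partly fixed by their choice from these libraries. All verbs of change below refer to calls of the fit over 17 libraries and carry this limit.

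**Figure D2:**
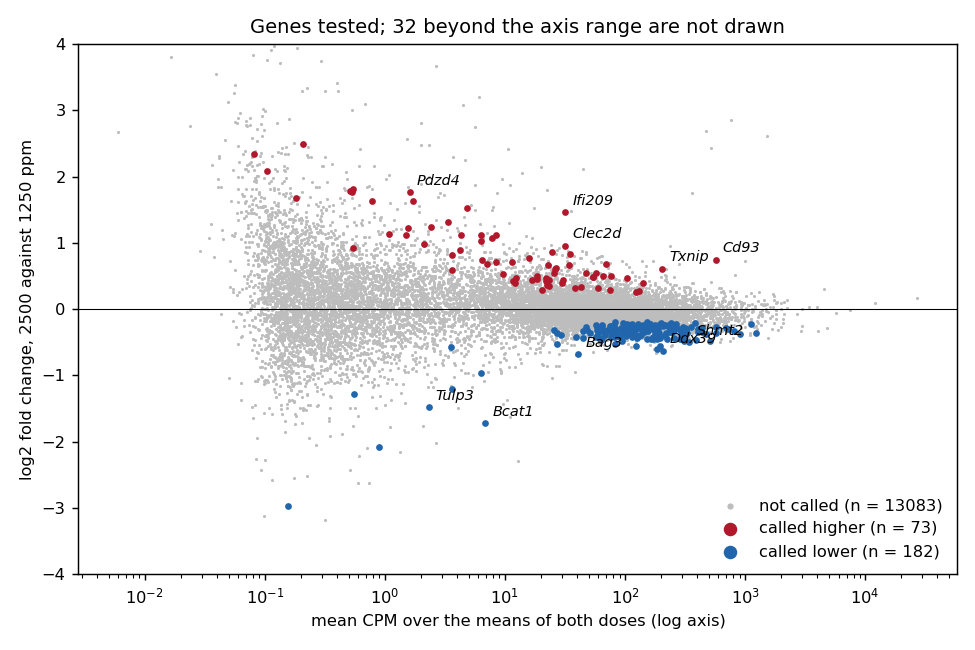
Each point is a gene tested, with its mean CPM over both doses (x axis, log) and its log2 fold change of 2500 against 1250 ppm (y axis); red, the genes called higher, blue, the genes called lower, grey, not called. The 182 genes called lower form a narrow band below 0 among well expressed genes, and the 73 called higher are spread over lower levels; 32 genes lie outside the range drawn, 1 of them called.

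Among the genes called higher with no overlap between doses and a mean of at least 50 counts, Pdzd4 had the largest log2 fold change (1.77 ± 0.43, SE). Ifi209 is an interferon-inducible member of the mouse Ifi200 cluster (GRCm38 chromosome 1, 173630917 to 173647928). Its level at 2500 ppm ran from 27.9 over a median of 45.8 to 69.0 CPM, and it was 13.7, 24.4, 18.2 and 10.98 CPM in 1250 ppm libraries 1, 3, 4 and 5. All 6 libraries at 2500 ppm were above all 4 at 1250 ppm, with a log2 fold change of 1.46 ± 0.33 (SE; edgeR adjusted p = 0.0443). Ddx60, an antiviral helicase cofactor that is also interferon-inducible, had 5.24, 8.57 and 11.8 CPM as lowest, median and highest value at 2500 ppm. At 1250 ppm it had 3.80, 4.50, 3.76 and 3.75 CPM, and the log2 fold change was 1.12 ± 0.22 (SE; edgeR adjusted p = 0.0443). Pdzd4, a PDZ domain gene on chromosome X, was low throughout, at 1.31 to 3.98 CPM against 0.62 to 0.90 CPM.

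H2-Ob, the beta chain of the MHC class II modulator H2-O, ran from 9.25 over 10.4 to 11.9 CPM at 2500 ppm and was 4.59, 6.44, 5.80 and 3.14 CPM at 1250 ppm. The log2 fold change of H2-Ob was 1.08 ± 0.24 (SE), and none of the other 6 tested MHC class II genes was called. Clec2d, the C-type lectin ligand of an inhibitory NK cell receptor, ran from 26.4 over 43.0 to 54.4 CPM and was 21.8, 25.1, 23.2 and 15.6 CPM at 1250 ppm. The ranges came close, at 26.4 and 25.1 CPM. Cd93, a transmembrane receptor of early myeloid and stem cells, was singled out after its values were seen and had 585, 713 and 835 CPM at 2500 ppm against 406, 516, 460 and 313 CPM. Its log2 fold change was 0.75 ± 0.18 (SE; edgeR adjusted p = 0.0476). Kit, the receptor used in the sort, had 541 to 676 CPM against 376 to 501 CPM with no overlap, but did not pass (log2 fold change 0.41, edgeR adjusted p = 0.0989).

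The remaining genes of the 15 largest rises were Gm15987, Tiam2, Ptpro, Gprin3, Paqr5, AI429214, 2310001H17Rik, Tmem71, Zc3h6 and 4930432K21Rik, with log2 fold changes of 0.98 to 1.63. Tiam2 is an exchange factor for the GTPase RAC1, Ptpro a receptor tyrosine phosphatase, and Zc3h6 a CCCH zinc finger gene. Gm15987 is annotated as antisense to Clec2g, and the use of strand in counting is not stated, so its reads cannot be told apart from those of that gene. Txnip, called on the list of stem cell regulators, and 5 genes singled out after their values were seen also rose. Txnip, an inhibitor of glucose uptake and thioredoxin, had 216, 247 and 268 CPM at 2500 ppm against 144, 186, 189 and 124 CPM, a log2 fold change of 0.61 ± 0.14 (SE). Mxd4, a MAX partner that competes with MYC, had 107, 119 and 136 CPM against 86.7, 92.2, 87.7 and 78.3 CPM. Cul9, a cullin of the p53 pathway, had 40.1, 40.5 and 44.7 CPM against 26.2, 26.6, 28.4 and 24.0 CPM. In Txnip, Mxd4 and Cul9 the groups did not overlap. Satb1, a chromatin organiser of stem and lymphoid cells, rose by a log2 fold change of 0.68, Pdk2, which restrains pyruvate entry into the citrate cycle, by 0.71, and Irf2, a transcription factor of the interferon response, by 0.32.

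Among the 15 largest falls, 5 were genes of low level with large changes. Bcat1, the cytosolic branched-chain amino acid transaminase, had 1.39, 3.19 and 5.36 CPM as lowest, median and highest value at 2500 ppm. At 1250 ppm it had 13.8, 8.09, 6.05 and 14.2 CPM, and the log2 fold change was -1.72 ± 0.36 (SE; edgeR adjusted p = 0.0443). Libraries 1 and 5 at 1250 ppm were the high ones, and library 4 was nearest to the 2500 ppm range. Tulp3, an adaptor of ciliary trafficking, had 0.85 to 1.56 CPM against 2.42 to 4.15 CPM (log2 fold change -1.48). Smpdl3b (log2 fold change -2.08), a sphingomyelinase-like gene, Zdhhc2 (-1.20), a palmitoyltransferase gene, and Ccdc116 (-0.96) were the others.

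The other 10 had smaller changes, and all but Cdon and Sapcd2 were well expressed. Ddx39, an RNA helicase of splicing and mRNA export, had 144, 153 and 194 CPM at 2500 ppm and 261, 214, 246 and 278 CPM at 1250 ppm, with a log2 fold change of -0.63 ± 0.11 (SE; edgeR adjusted p = 0.0443). Ddx39 overlaps Adgre5 on the other strand. Isyna1, the inositol-3-phosphate synthase, had 131, 140 and 176 CPM against 227, 205, 202 and 263 CPM, a log2 fold change of -0.61 ± 0.10 (SE). Tomm40, the channel of the outer mitochondrial membrane through which proteins are imported, had 133, 150 and 194 CPM against 244, 195, 231 and 265 CPM. Its highest 2500 ppm library and its lowest 1250 ppm library were nearly equal, at 194 and 195 CPM, with a log2 fold change of -0.56 ± 0.12 (SE). Shmt2, the mitochondrial serine hydroxymethyltransferase of one-carbon metabolism, had 238, 273 and 343 CPM against 436, 359, 376 and 433 CPM, and a log2 fold change of -0.50 ± 0.12 (SE; edgeR adjusted p = 0.0485). Cdc34, a ubiquitin-conjugating enzyme of cell cycle entry, fell by 0.55 on the log2 scale, and Rbm19 and Mrto4, both of ribosome assembly, by 0.53 and 0.48. Sapcd2, Cdon and Ankrd52 fell by 0.53, 0.57 and 0.49. Of the 15 largest falls, 1250 ppm library 3 was the lowest of its group in 9, and 2500 ppm library 4 was the highest of its group in 9 and library 3 in 5.

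**Figure D3:**
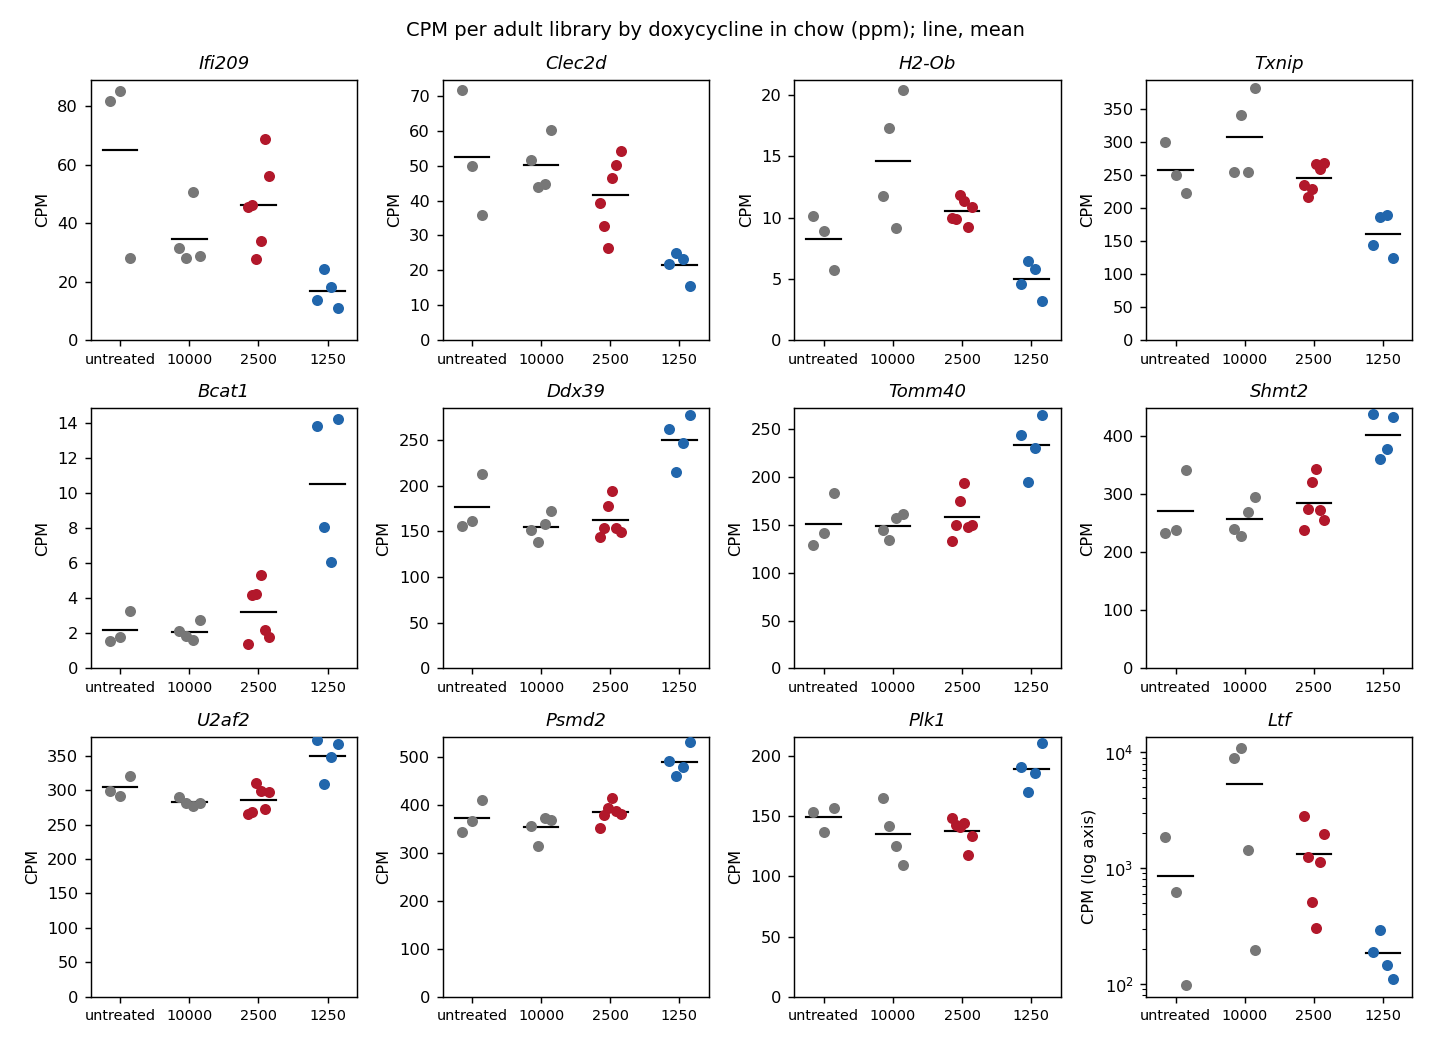
CPM of 12 genes in each of the 17 adult libraries (points) by doxycycline dose, with the group mean as a line; the y axis starts at 0 except for Ltf, which has a log axis. The 2500 and 1250 ppm points overlap in U2af2 only, at 310 and 309 CPM, and nearly touch in Tomm40, at 194 and 195 CPM; Ltf was not called.

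Genes of intron recognition and splicing were described by lists. Over all 13338 genes tested, 1.36% were called lower and 0.547% higher, 6528 lay below 0 and 6810 above. An unadjusted p under 0.05 was found in 2762 of them, and 8.25% were free of overlap between the doses. The edgeR list counts below stand beside these shares. Those of the other tools stand beside larger counts. DESeq2 called 948 of 25599 genes, 388 higher and 560 lower. Limma voom with sample weights called 2989 of 13338, 1151 higher and 1838 lower. In any list, 1 called gene is not read as a result of that list. Of 18 tested genes of 3′ splice-site recognition, 2 fell, U2af2 and Sf3a1, none rose, and the median log2 fold change was -0.14. U2af2, the partner of U2AF1, had 266, 285 and 310 CPM at 2500 ppm and 372, 309, 349 and 367 CPM at 1250 ppm, with a log2 fold change of -0.29 ± 0.06 (SE; edgeR adjusted p = 0.0443). The groups overlapped only through 1250 ppm library 3. Sf3a1, a subunit of SF3A, had 265, 282 and 314 CPM against 365, 328, 361 and 364 CPM, a log2 fold change of -0.29 ± 0.07 (SE) with no overlap. Puf60, a U2AF-related protein, had a log2 fold change of -0.21 and an edgeR adjusted p of 0.0627, and Sf3b1, the branch point subunit that is itself mutated in myelodysplasia, had 0.04. Both relatives of U2AF1 on the list, Zrsr1 and Zrsr2, had 0.11 and -0.04 with adjusted p of 0.656 and 0.848.

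Of 25 core spliceosome genes, 23 lay below 0, 3 fell (Snrpc, Prpf31 and Lsm4) and the median was -0.22. Snrpc, a protein of the U1 particle that recognises the 5′ end of introns, had 70.4, 75.8 and 82.6 CPM against 97.9, 89.7, 92.3 and 98.0 CPM, with a log2 fold change of -0.32 ± 0.06 (SE). Prpf31, which joins the U4, U5 and U6 particles, had 126, 144 and 169 CPM against 199, 183, 184 and 216 CPM, and a log2 fold change of -0.42 ± 0.09 (SE). The mean level of the list was 6.63 to 6.78 log2 CPM per library at 2500 ppm and 6.84 to 6.92 at 1250 ppm, with no overlap. This was not particular to splicing. The levels were also free of overlap for ATF4 targets (4.60 to 4.97 against 4.99 to 5.22) and p53 targets (3.81 to 4.23 against 4.26 to 4.32). The same held for endoplasmic reticulum chaperones and import translocases, among others, while heat shock and proteasome levels overlapped. Of 35 SR and hnRNP genes, the regulators of splice-site choice, 2 fell, Hnrnpa0 and Srsf9, beside 1.36% of all genes tested. The median was -0.11. Srsf2, another gene mutated in myelodysplasia, had 523 to 567.9 CPM against 591 to 708 CPM without overlap and did not pass (log2 fold change -0.26, edgeR adjusted p = 0.0520). Of 19 genes of nonsense-mediated decay, which destroys transcripts with early stop codons, 3 fell: Eif4a3 and Rnps1 of the exon junction complex, by 0.30 and 0.27 on the log2 scale, and Smg8, a regulator of the SMG1 kinase, by 0.31.

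The ATF4, heat shock and endoplasmic reticulum chaperone lists had the lowest medians of all lists with at least 5 tested members. Of 36 tested ATF4 targets of the integrated stress response, 32 lay below 0, the median was -0.35, and 2 fell, Shmt2 and Aars. Aars, the alanyl-tRNA synthetase, had 169, 181 and 214 CPM against 267, 231, 252 and 283 CPM, a log2 fold change of -0.46 ± 0.11 (SE; edgeR adjusted p = 0.0476). Atf5, a transcription factor of the same response, had 12.9 to 15.7 CPM against 16.1 to 29.0 CPM without overlap and did not pass (log2 fold change -0.60, edgeR adjusted p = 0.0727), and Atf4 itself had -0.22. Of 16 heat shock genes, 15 lay below 0 and 2 fell. Bag3, a co-chaperone of selective autophagy, had 25.4, 29.9 and 41.8 CPM against 48.7, 36.7, 57.4 and 58.1 CPM, where 1250 ppm library 3 lay inside the 2500 ppm range (log2 fold change -0.68 ± 0.16, SE). Ahsa1, the activator of the HSP90 ATPase, had 189 to 253 CPM against 267 to 283 CPM (log2 fold change -0.34). Of 23 chaperones of the endoplasmic reticulum, 20 lay below 0, and Syvn1, the ubiquitin ligase of protein degradation there, was the 1 gene that fell, from 88.5 to 122 CPM at 1250 ppm to 72.6 to 85.4 CPM at 2500 ppm.

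The 26S proteasome, a family added after the calls were seen, had 33 of 34 tested subunits below 0, 7 that fell and a median of -0.22. Psmd2, the scaffold of its regulatory particle, had 352, 385 and 416 CPM at 2500 ppm and 492, 460, 480 and 532 CPM at 1250 ppm, with a log2 fold change of -0.35 ± 0.07 (SE). The other subunits that fell were Psmc1, Psmc3, Psmc4, Psmc5, Psmd3 and Psmb2, with log2 fold changes of -0.44 to -0.30. Vcp, the unfoldase that delivers ubiquitinated proteins, fell as well, from 840 to 972 CPM to 640 to 759 CPM, as did its cofactors Nploc4 and Nsfl1c, all 3 singled out after their values were seen. The cytosolic chaperonin, which folds actin and tubulin, was likewise added, with a list that did not hold every subunit. The 7 subunits on the list all lay below 0 with a median of -0.25. None of them was called in edgeR, 4 had an unadjusted p under 0.05, DESeq2 called 1 and limma voom with sample weights 5, and the median was -0.04 with the neutrophil covariate.

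Several lists held nuclear genes for mitochondrial proteins. Of 66 mitochondrial ribosomal protein genes, 65 lay below 0, with a median of -0.23, and 4 fell, Mrpl43, Mrps7, Mrpl51 and Mrpl54. Mrps7 had 57.5, 66.0 and 78.5 CPM against 90.7, 80.4, 85.5 and 94.4 CPM, a log2 fold change of -0.38 ± 0.09 (SE). Of 42 cytosolic ribosomal protein genes, 28 lay above 0, none was called in edgeR or DESeq2, 1 had an unadjusted p under 0.05, and limma voom called 2 higher and 1 lower. Their median was 0.04, from -0.01 without 2500 ppm libraries 2, 3 and 4 to 0.13 without libraries 1, 5 and 6. Of 73 nuclear genes of the respiratory chain, 64 lay below 0 and 6 fell. Of these, Uqcrfs1, Uqcr11, Uqcrq and Uqcrc1 belong to complex III, Ndufc2 to complex I and Cox7c to complex IV. The list did not hold every subunit. Cyc1, also of complex III, was not on it and was named after its values were seen. It fell by 0.42 on the log2 scale (edgeR adjusted p = 0.0443). Lonp1, Grpel1 and Phb2, a protease, a co-chaperone of import and a prohibitin, fell among 20 genes of mitochondrial protein quality control (median -0.25). Lonp1 had 180, 190 and 213 CPM against 247, 228, 241 and 279 CPM, and a log2 fold change of -0.36 ± 0.07 (SE). Of 16 import translocases, a family added after the calls were seen, Timm13, Timm23, Tomm22 and Tomm40 fell (median -0.24). Mdh2 and Cs, enzymes of the citrate cycle, fell by 0.35 and 0.29 on the log2 scale. Of 19 genes of glycolysis, Tpi1 and Pfkp fell, and the median was -0.23, but -0.06 without 1250 ppm library 5, -0.15 without 1250 ppm library 4, -0.13 without 2500 ppm library 5 and -0.14 without 2500 ppm library 4. Transcripts encoded by the mitochondrial genome were not analysed here.

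Of 28 genes of mitosis, 18 lay below 0 with a median of -0.13, 11 were lower and 0 higher at an unadjusted p under 0.05, and 3 fell: Cdc20, the activator of the anaphase-promoting complex, and the kinases Plk1 and Aurka. Plk1 had 118, 142 and 149 CPM against 191, 170, 186 and 211 CPM, with a log2 fold change of -0.46 ± 0.10 (SE; edgeR adjusted p = 0.0443). Of 35 genes of DNA replication, 25 lay below 0 with a median of -0.10, and 13 were lower and 0 higher at an unadjusted p under 0.05. Cdc6, which loads the replicative helicase, fell by 0.27 on the log2 scale, and the helicase subunit Mcm2 had -0.20 with an edgeR adjusted p of 0.0627. Of 32 p53 targets, 22 lay below 0 with a median of -0.20, and Gtse1, a negative regulator of p53 that peaks in G2, fell by 0.47 on the log2 scale. Cdkn1a, the p53-induced cell cycle inhibitor, had -0.51 with an edgeR adjusted p of 0.265, and Mdm2 had -0.06.

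No gene of the neutrophil, megakaryocyte, erythroblast, eosinophil or monocyte lists was called in edgeR. All 5 eosinophil genes lay above 0 (median 0.58), 1 at an unadjusted p under 0.05. Their mean level was 2.66 to 3.73 log2 CPM at 2500 ppm and 2.09 to 2.56 at 1250 ppm, without overlap. Of 8 monocyte genes, 6 lay above 0 and 2 below (median 0.48), and 3 were higher at an unadjusted p under 0.05. The 9 neutrophil genes all lay above 0 with a median of 2.15, 7 of them at an unadjusted p under 0.05, and DESeq2 and limma voom with sample weights each called 4. Ltf, the lactoferrin of secondary granules, had 305, 1197 and 2807 CPM at 2500 ppm and 189, 289, 146 and 111 CPM at 1250 ppm (log2 fold change 2.85 ± 0.97, SE; edgeR adjusted p = 0.108). The 2500 ppm libraries spread widely, and the lowest was close to 1250 ppm library 3. Ngp, another granule protein of maturing neutrophils, had 574 to 5685 CPM against 337 to 550 CPM, with an edgeR adjusted p of 0.111. The genes of primary granules, which mark an earlier stage, had a median of -0.02 over 6 tested, from -0.23 to 0.15 over the alternatives, with 0 at an unadjusted p under 0.05 and 0 called by any of the 3 tools. All 13 megakaryocyte and platelet genes lay above 0 (median 0.66), 5 at an unadjusted p under 0.05, with 0 called by DESeq2 and 2 by limma voom. Itgb3, the platelet integrin, had 33.4 to 52.1 CPM against 23.5 to 31.6 CPM and an edgeR adjusted p of 0.134. The 17 erythroblast genes had a median of -0.26 and 13 below 0, with 0 at an unadjusted p under 0.05, 0 called by DESeq2 and 1 by limma voom, and the median ran from -0.57 without 2500 ppm library 4 to 0.14 with the neutrophil covariate. The median of the neutrophil list was 1.55 without 2500 ppm libraries 1, 5 and 6 and 2.55 without libraries 2, 3 and 4, and -0.06 with its own level as a covariate.

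Interferon-stimulated genes were of interest because both groups had received pIpC. Of 42 tested, 34 lay above 0 with a median of 0.20, and 8 were higher and 1 lower at an unadjusted p under 0.05. Such a p was found in 2762 of all 13338 genes tested, a similar share. None of the 42 was called in edgeR, and DESeq2 called 1. Limma voom called 7 higher and 1 lower, beside 2989 of all 13338 genes tested. Ifi209 and Ddx60, described above, are not on this list. Xaf1, an interferon-induced promoter of apoptosis, had 3.67 to 4.45 CPM against 2.12 to 3.47 CPM (edgeR adjusted p = 0.0910). All 19 small nucleolar RNAs tested lay above 0 (median 2.07), but at very low counts: their share of all counts was 0.00215 to 0.00706% at 2500 ppm and 0.00106 to 0.00349% at 1250 ppm. Their median was 4.62 without 1250 ppm library 3 and 0.91 without 2500 ppm libraries 1, 5 and 6. The low counts limit these values, and the part of depth was not tested. None passed in edgeR, with 12 at an unadjusted p under 0.05, 4 called by DESeq2 and 11 by limma voom. Among 80 immunoglobulin segments, Igkv8-24 was the 1 called gene, beside 1.91% of all genes tested. It had at most 0.65 CPM in any library of both doses, with 3 of 4 libraries at 1250 ppm at 0.

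The medians of the other lists with falls kept their sign in every alternative, but several moved by more than 1.5 times. With the neutrophil covariate, which itself moves with the dose, the median was -0.21 for ATF4 targets, -0.19 for heat shock and -0.13 for the proteasome. It was -0.14 for the core spliceosome, and -0.12 for both mitochondrial ribosomal proteins and mitochondrial quality control. It was -0.16 for the import translocases in the same fit. Without 2500 ppm library 5 it was -0.09 for both 3′ splice-site recognition and mitosis, and without 2500 ppm library 1 it was -0.06 for replication and -0.12 for the respiratory chain. For nonsense-mediated decay it was -0.07 without 1250 ppm library 4 or 5, for mitosis -0.08 without 1250 ppm library 4, and for p53 targets -0.12 without 1250 ppm library 1 and -0.10 without library 3. Without 2500 ppm libraries 2, 3 and 4 it was -0.03 for SR and hnRNP genes, and -0.04 for both mitosis and nonsense-mediated decay. Without 2500 ppm libraries 1, 5 and 6 it was -0.22 for ATF4 targets and -0.15 for mitochondrial ribosomal proteins. In that fit it was -0.11 for the respiratory chain and -0.09 for p53 targets. For mitosis, SR and hnRNP genes and nonsense-mediated decay it was -0.16, -0.14 and -0.12 there, lower than in the fit over 17 libraries.

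**Figure D4:**
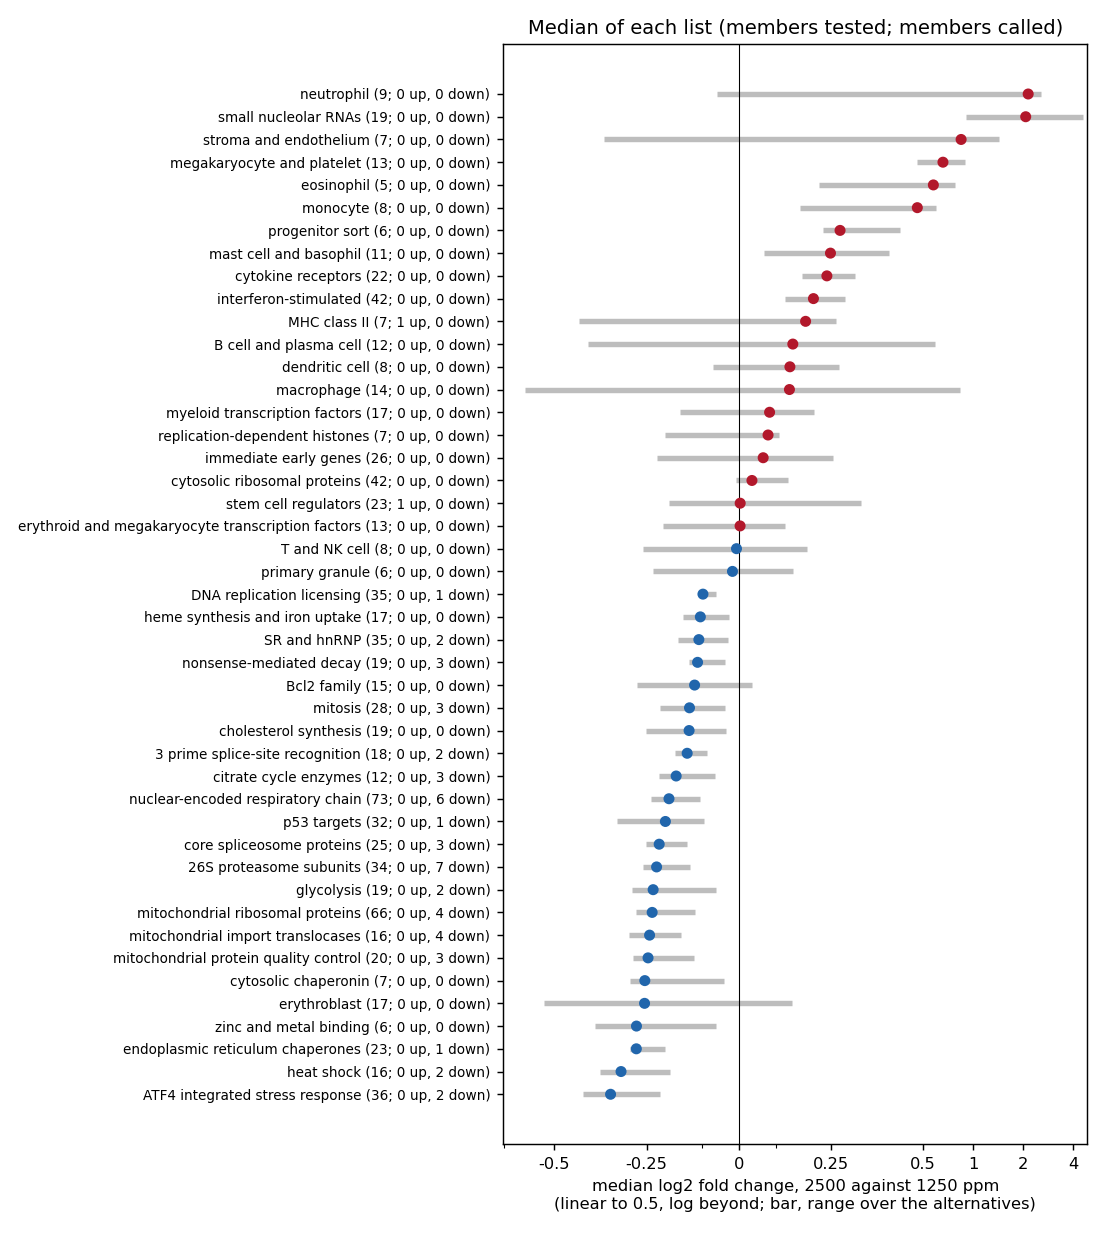
Median log2 fold change of each gene list with at least 5 tested members (points; immunoglobulin segments left out), with the range over the alternatives as a grey bar; the axis is linear up to 0.5 and logarithmic beyond. The ATF4, heat shock and endoplasmic reticulum lists have the lowest medians, with bars that stay below 0, and the bar of the neutrophil list runs from -0.06, with its own level as a covariate, to 2.55.

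The genes called lower were also described by type, level and GC content. Level enters the calling, since a small change can pass only at high counts, so the first 2 are partly fixed by it. All 182 were protein-coding, against 59 of the 73 called higher and 81.6% of all genes tested. They were well expressed, with a median of 149 CPM at 1250 ppm and 118 CPM at 2500 ppm, against 18.2 and 18.8 CPM over all genes tested. Their median transcript GC content was 53.3%, against 48.3% in the genes called higher and 49.6% in all tested, and with a correction for GC content 397 genes were called, 287 of them lower.

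The promoters of the called genes were searched for 5 short motifs in the window from 250 bases before to 50 bases after the RefSeq start (GRCm38.p6), on both strands. A promoter was matched for 155 genes called lower, 57 called higher and 8947 of all tested. The ETS-family motif CCGGAAG was in 29.0% of the promoters of genes called lower, 10.5% of those called higher, 17.5% of all tested and 22.1% of all tested at a mean of at least 50 CPM. The CCAAT box (CCAAT) was in 48.4%, 33.3% and 38.2% of the lower, higher and all promoters, the GC box (GGGCGG) in 59.4%, 59.6% and 63.0%, the E-box (CACGTG) in 7.74%, 8.77% and 9.95%, and TTTGGCGC, an E2F motif, in 0.645%, 0% and 0.950%. Expression level moves with the ETS share, and its part was not tested. The ETS motif is shown in capitals in the promoters of Isyna1 (chr8:70594231-70594530, plus strand), Rbm19 (chr5:120116263-120116562, plus strand) and Shmt2 (chr10:127522395-127522694, minus strand), the only 3 that held it among the 13 of the 15 largest falls with a RefSeq promoter, each once, and CTTCCGG is the same motif read on the other strand. A match describes these letters and is no evidence of binding.
Isyna1: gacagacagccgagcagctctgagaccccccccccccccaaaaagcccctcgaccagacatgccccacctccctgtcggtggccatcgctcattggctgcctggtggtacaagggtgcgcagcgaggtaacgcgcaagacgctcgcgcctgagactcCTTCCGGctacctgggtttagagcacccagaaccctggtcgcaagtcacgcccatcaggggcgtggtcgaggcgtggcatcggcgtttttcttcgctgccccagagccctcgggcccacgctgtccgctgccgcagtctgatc
Rbm19: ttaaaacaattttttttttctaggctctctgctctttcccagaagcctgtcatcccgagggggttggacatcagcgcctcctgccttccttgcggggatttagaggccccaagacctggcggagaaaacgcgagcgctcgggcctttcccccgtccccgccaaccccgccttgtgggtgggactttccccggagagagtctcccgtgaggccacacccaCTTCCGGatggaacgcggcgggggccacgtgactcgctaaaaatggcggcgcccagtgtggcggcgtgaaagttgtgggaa
Shmt2: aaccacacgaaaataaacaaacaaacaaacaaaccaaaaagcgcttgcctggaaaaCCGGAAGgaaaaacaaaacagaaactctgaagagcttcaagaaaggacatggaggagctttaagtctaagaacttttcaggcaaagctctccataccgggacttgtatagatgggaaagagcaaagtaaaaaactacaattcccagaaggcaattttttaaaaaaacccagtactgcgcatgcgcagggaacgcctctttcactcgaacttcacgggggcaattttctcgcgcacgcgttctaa

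The levels of 5 genes in the 2 adult groups outside the comparison are given side by side, since these groups would share libraries with it in any further contrast. Ddx39 had 138 to 173 CPM at 10000 ppm and 156, 161 and 213 CPM in the untreated libraries, beside 144 to 194 at 2500 ppm and 214 to 278 at 1250 ppm. Bcat1 had 1.63 to 2.79 CPM at 10000 ppm and 1.55 to 3.25 CPM in the untreated libraries, beside 1.39 to 5.36 and 6.05 to 14.2 CPM. Psmd2 had 316 to 373 CPM at 10000 ppm and 344 to 411 CPM untreated, beside 352 to 416 and 460 to 532 CPM. The highest untreated value of Ddx39, 213 CPM, lay next to the lowest at 1250 ppm, 214 CPM, and that these genes differ between 2500 and 1250 ppm is fixed by their choice. Txnip differed, with 254 to 381 CPM at 10000 ppm, which reached above the 216 to 268 CPM of 2500 ppm, and 223 to 300 CPM untreated. Ltf, not called, had 197 to 10812 CPM at 10000 ppm and 97.6 to 1859 CPM untreated, beside 305 to 2807 CPM at 2500 ppm and 111 to 289 CPM at 1250 ppm.

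**Figure D5:**
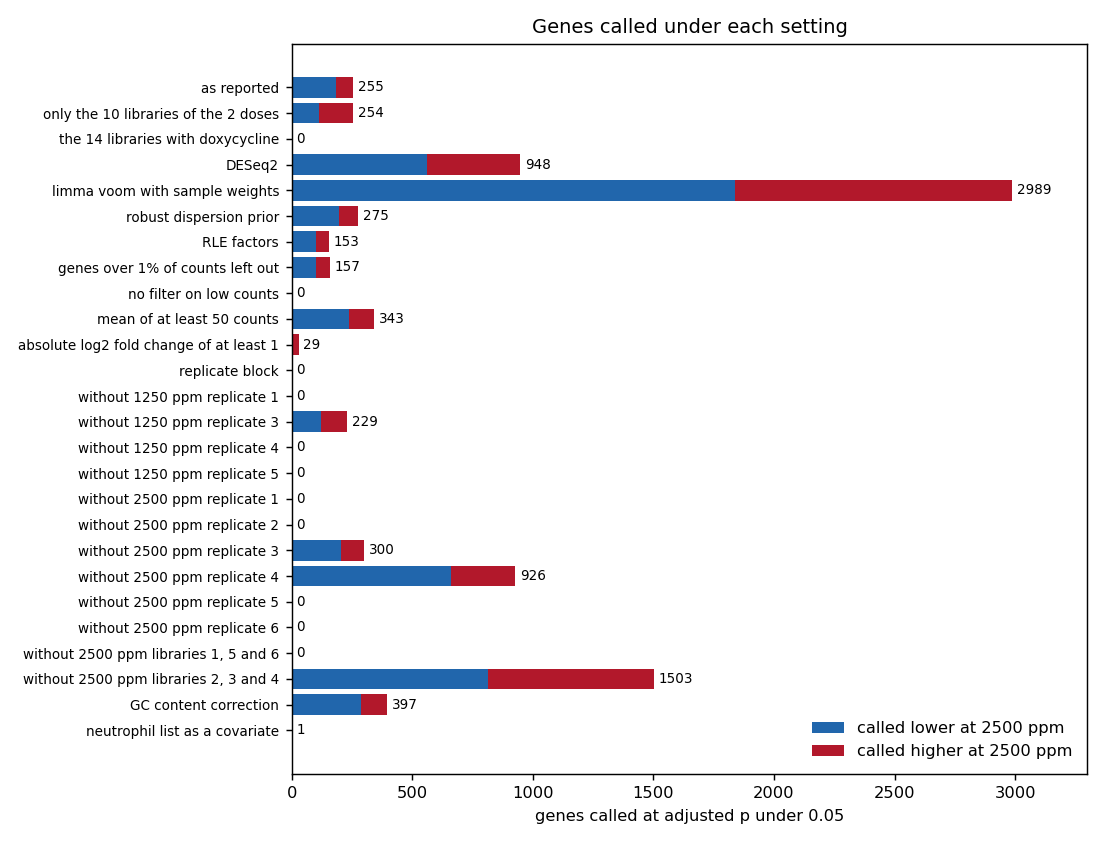
Number of genes called at an adjusted p under 0.05 (x axis) under each setting (rows), split into genes lower (blue) and higher (red) at 2500 ppm. The count runs from 0, in 7 of the 10 fits without 1 library and in 4 other settings, to 2989 with limma voom with sample weights.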

How the data were processed

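Total RNA of sorted progenitors was sequenced after depletion of ribosomal RNA. The authors mapped the reads with HISAT2 to GRCm38 and deposited raw counts per gene, per the labels' protocols and the series' design text; the counting tool, its use of strand and any filter on genes are not given in the sources used here. The 17 adult libraries were fitted in 1 edgeR 4.0.16 quasi-likelihood model (R 4.3.3) with a mean for each of 4 groups, TMM factors and the default filter on low counts, which left 13338 genes of 27728. The contrast was 2500 minus 1250 ppm, two-sided, with Benjamini-Hochberg adjustment over all genes tested and a threshold of 0.05. Standard errors are the absolute log2 fold change divided by the square root of F. Log2 CPM used a prior count of 2. DESeq2 1.42.0 and limma 3.58.1 served as alternatives.

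The members and lists were chosen with earlier results of these data known. Named genes were the 15 largest rises and 15 largest falls among called genes with no overlap and a mean of at least 50 counts, and in each list any called gene and the 3 with the smallest p. Cul9, Mxd4, Pdk2, Cd93, Satb1, Irf2, Vcp, Nploc4, Nsfl1c and Cyc1 were chosen as named genes after values were seen. So were the families of proteasome, import, chaperonin and citrate cycle genes, and the ETS motif and the 3 promoters shown. The result of the citrate cycle family as a list is not reported here. A further such family, the repressors of the MAX network with Mxd4, was looked at and left out after its values were seen. The ribosomal protein list was corrected after values were seen, to remove Rps6k kinases and Rps27l, and where a symbol had 2 identifiers the one with the larger mean CPM was kept. The alternatives without 2500 ppm libraries 1, 5 and 6, without libraries 2, 3 and 4, with a GC correction and with a neutrophil covariate were also chosen after seeing the data.

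Simulated counts of this comparison had 50 genes changed at each size among 13095 genes. The changed genes were drawn only from those above a minimum mean CPM. Genes as low as Pdzd4 and Tulp3 were thus not among them. In the simulated counts the model recovered 12% of changes of 1.25-fold, 56% of 1.5-fold, 90% of 2-fold and 100% of 3-fold. Of its 135 calls, 6 were of unchanged genes. The rates hold for the simulated counts only. In the real data single libraries decided the calls, so the rates are not read as the power of the real comparison. Libraries with the same number did not deviate together, with correlations of -0.12 to -0.01 over 4 pairs, so the numbers were not used as pairs.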

Additional observations from a re-analysis of the deposited data

Results flagged for a closer look

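In 8 of 276 groups of libraries checked, 1 library stood far from the others of its group, where chance gives about 1 in 20, or 13.8. At 1250 ppm, library 3 had 4.50 CPM of Ddx60 against 3.75 to 3.80 CPM in the others, 328 CPM of Sf3a1 against 361 to 365 CPM, 2.26 CPM of Ly6g, a neutrophil surface gene, against 0.356 to 0.669 CPM, and 0.0285 CPM of Igkv8-24 where the others had 0. At the same dose, library 5 had 1486 CPM of Hyou1, an endoplasmic reticulum chaperone, against 1143 to 1198 CPM, and a mean of 8.69 log2 CPM over the endoplasmic reticulum chaperone list against 8.43 to 8.44. Library 4 had a mean of 7.70 log2 CPM over the list of 3′ splice-site recognition, against 7.66 in each of the others. At 2500 ppm, library 1 had 302 CPM of Cd34, a stem and progenitor surface gene, against 409 to 468 CPM.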

How the results depend on the processing

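Of 255 calls, the number became 0 with the 14 libraries with doxycycline, 0 with no filter on low counts, 0 with the replicate number as a block (replicate block), 0 without 2500 ppm libraries 1, 5 and 6, 1 with the neutrophil covariate, 29 at a log2 fold change of at least 1, 153 with RLE factors, 157 without genes over 1% of counts, 397 with the GC correction, 948 with DESeq2, 1503 without 2500 ppm libraries 2, 3 and 4 and 2989 with limma voom with sample weights. Leaving out 1 library gave 0 to 926 calls, with 0 in 7 of 10 fits and 926 without 2500 ppm library 4. The cause was not tested. At an unadjusted p under 0.05 the fit with the replicate block held 2129 genes. None of the 4 libraries at 1250 ppm correlated best with the 2500 ppm library of its own number. A fit with Xist as a covariate was planned and not run.

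The sign turned in 17 gene results, none of them of a called gene. Without 2500 ppm libraries 2, 3 and 4 these were Sparc at -0.37, Cdh5 at -0.14, Ly6d at -0.15, H2-Oa at -0.084 and Gata2 at -0.16. With the neutrophil covariate they were Slc40a1 at -0.15, Fosl2 at -0.13, Cd3d at -0.20, Elane at -0.19 and Mpo at -0.076. Gm29650 had 0.18 without 2500 ppm libraries 1, 5 and 6, and -0.16 to 0.030 with 1 library left out. Gata2 had -0.19 with limma voom, and -0.18 to 0.23 with 1 library left out. Low counts limit genes such as small nucleolar RNAs and immunoglobulin segments, and the part of depth was not tested.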
